A study of Homo sapiens with 12 samples.

Results

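Autophagy carries cell components to the lysosome in a double membrane, the autophagosome, and cells make more of its proteins under starvation and stress. The ULK1 kinase complex and a BECN1-containing lipid kinase complex start the membrane, WIPI proteins and the ATG12-ATG5 conjugate extend it and attach LC3 and GABARAP proteins, and receptors such as SQSTM1 and NBR1 bind ubiquitin-tagged cargo to those proteins. ATF4, a transcription factor of the integrated stress response, and TFEB, the transcription factor of lysosome biogenesis, can both raise genes of this pathway.

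The 10 genes described here are SQSTM1, NBR1, MAP1LC3B, GABARAPL1, ULK1, BECN1, WIPI1, ATG5, ATG12 and TFEB, chosen by symbol as autophagy receptors, initiation genes and genes that ATF4 or TFEB can raise. They are 10 of 26485 gene symbols counted, and 10 of 10 passed the filter on low counts, as did 13619 genes in all. These genes, and the lists of related genes below, were chosen with earlier results of these data known. Counts of them called, beside the share of all genes, are therefore a description and not a test of an excess. Reads of polyadenylated RNA were counted in 12 libraries of DLD1 cells, an established human colon cancer line, after 1 h of exposure. The 4 groups of 3 libraries had received DMSO, the vehicle, or 10 µM of TCDD, a dioxin that strongly activates the aryl hydrocarbon receptor (AHR), of kynurenine, a tryptophan metabolite described as an AHR agonist, or of CH223191, a synthetic AHR antagonist. The sample labels write the last as CH, which is read here as the CH223191 of the series title, the protocol text does not name it, and the dose is the one stated for each chemical. The labels name no genotype other than the cell line, and they leave unsaid if its 3 replicates were grown separately, so p-values measure the spread between libraries, which may be technical.

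Depth was 21397703 to 28247146 counted reads per library. CYP1A1, the classical AHR target, stood at 3.22 ± 0.142 CPM, the reads of a gene relative to its library's scaled depth (mean ± SD, n = 3, here and in what follows), under vehicle, 428 ± 15.9 with TCDD, 10.1 ± 1.01 with kynurenine and 0.520 ± 0.188 with CH223191. The 10 colon epithelial markers summed to 8871 to 9931 CPM over the 12 libraries (2 of them under 1 CPM on average), while 8 fibroblast markers summed to at most 1.26 CPM, 9 immune markers to between 7.27 and 17.03 and 8 endothelial markers to at most 3.66. The keratin genes KRT8 (4642 CPM on average) and KRT18 (2023) made up much of the first sum. Of the other colon markers CDX2 averaged 123 CPM, KRT20 3.21, VIL1 2.48, CEACAM5 0.112 and CDX1 0.0476. Kynurenine replicate 1 stood apart from its group. Without it the counts of the 10 genes called against DMSO did not change, and those called against CH223191 went from 6 to 7 with TCDD and from 5 to 6 with kynurenine, by the addition of BECN1.

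CH223191 raised 5 of the 10 genes and lowered 0, at an adjusted p under 0.05 by edgeR's quasi-likelihood test over all genes, where 15.9% of all tested genes were called higher and 32.8% in either direction. The 5 were the cargo receptors NBR1 and SQSTM1, the membrane-bound receptor-binding proteins MAP1LC3B and GABARAPL1, and the initiating kinase ULK1. The rises were small, from 12.7% for GABARAPL1 to 53.0% for ULK1. TCDD and kynurenine changed 0 of the 10 by the same test, where TCDD changed 11.7% of all tested genes (5.91% higher and 5.83% lower) and kynurenine 0.294%. For each of these agonists 2 of the 10 had an unadjusted p under 0.05, and DESeq2 called 0 and 0. With CH223191, 8 of the 10 had no overlap between its 3 libraries and those of DMSO, as had 43.4% of all genes. Directly compared with CH223191, 5 of the 10 were lower with TCDD (18.1% of all genes were) and 5 were lower with kynurenine (16.4% of all genes, 33% in either direction), and in both they were the 5 raised over DMSO. In RNA from a whole culture, a change of RNA per cell cannot be told apart from a change in the share of cells that make it.

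**Figure D1:**
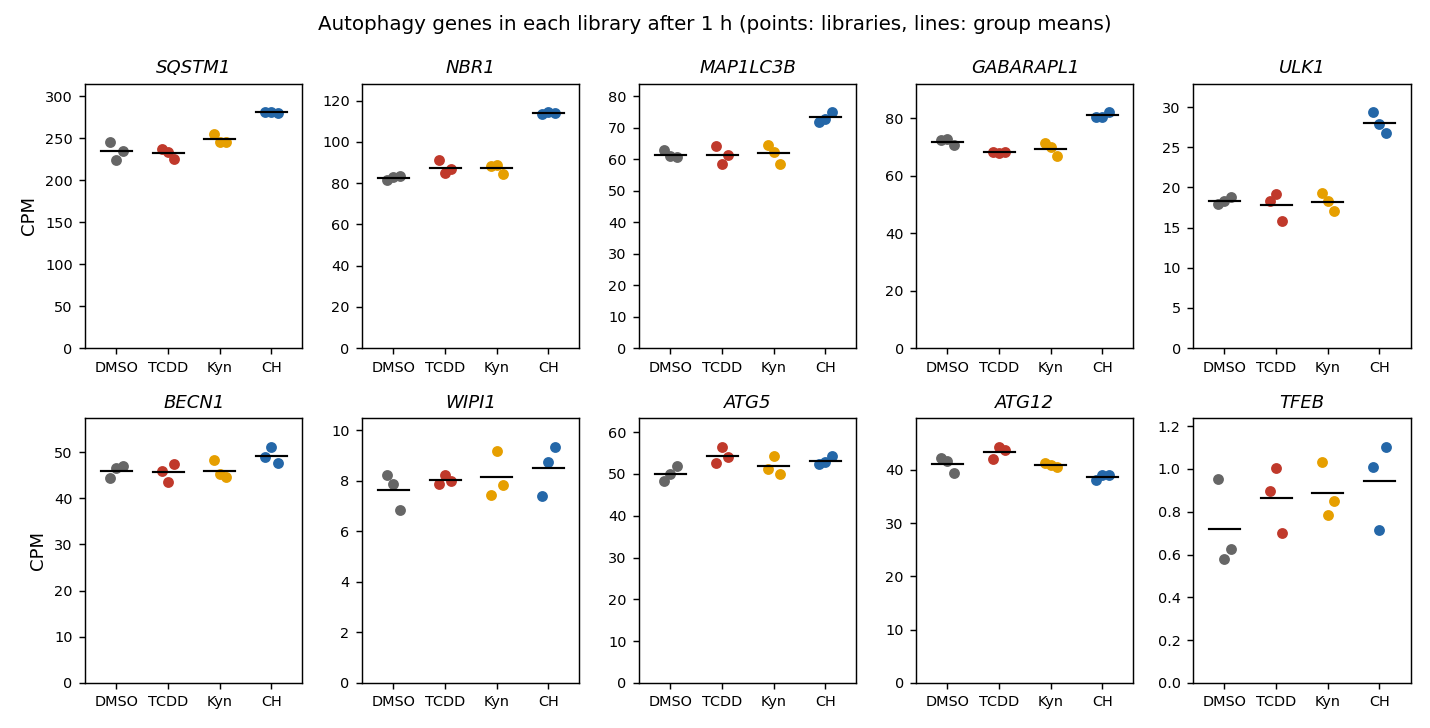
CPM of the 10 genes (vertical axes, each from 0) in every library of the 4 groups; points are libraries and lines are group means of 3. In the panels of SQSTM1, NBR1, MAP1LC3B, GABARAPL1 and ULK1 the 3 CH223191 libraries lie above the other 9, and ULK1 moves from 18.4 CPM in DMSO to between 26.8 and 29.4 with CH223191.

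The cargo receptors are described first. NBR1, a ubiquitin-binding receptor that works beside SQSTM1, read 81.4, 83.2 and 83.2 CPM in the DMSO libraries, 91.3, 84.8 and 86.6 with TCDD, 88.5, 88.6 and 84.6 with kynurenine, and 113, 115 and 114 with CH223191. The 3 CH223191 libraries were the highest of the 12 and lay close together. Against DMSO the log2 fold change was 0.46 ± 0.0377 (SE; edgeR adjusted p = 3.9e-12), or 1.38-fold. With TCDD it was 0.08 (adjusted p = 0.16) and with kynurenine 0.08 (adjusted p = 0.74). In both agonist groups the 3 libraries lay above the 3 DMSO libraries, but by margins that did not pass the test. Across the 4 groups NBR1 had the smallest p of the 10 genes.

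SQSTM1 encodes p62, the receptor that is itself degraded by autophagy and binds KEAP1, the inhibitor of the oxidative stress factor NRF2. It read 245, 224 and 235 CPM in DMSO, 237, 234 and 225 with TCDD, 254, 246 and 245 with kynurenine, and 281, 281 and 280 with CH223191. The CH223191 libraries lay close together, with an SD of 0.619 CPM, and above the rest. The log2 fold change against DMSO was 0.26 ± 0.0344 (edgeR adjusted p = 2.7e-07) with CH223191, -0.02 (0.83) with TCDD and 0.08 (0.61) with kynurenine. Between the agonists 0 of the 10 were called by edgeR, where 9.19% of all genes were (5.1% higher and 4.09% lower with TCDD), and 1 of the 10 had an unadjusted p under 0.05. SQSTM1 was 0.10 lower with TCDD on the log2 scale, which edgeR did not call (adjusted p = 0.067) and DESeq2 did (0.048), as did edgeR without DMSO replicate 1 (0.049).

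MAP1LC3B and GABARAPL1 belong to the ATG8 family, the small ubiquitin-like proteins that are attached to the autophagosome membrane and to which the receptors bind. MAP1LC3B, which encodes the usual marker protein of autophagosomes, read 62.8, 61.0 and 60.6 CPM in DMSO and 72.0, 72.8 and 75.0 with CH223191. With TCDD it read 64.1, 58.7 and 61.3 and with kynurenine 64.6, 62.5 and 58.5. The agonist libraries overlapped those of DMSO and the CH223191 libraries did not. The log2 fold change with CH223191 was 0.25 ± 0.0433 (edgeR adjusted p = 2.0e-05), and it was -0.0024 with TCDD (adjusted p = 0.98) and 0.01 with kynurenine (adjusted p = 1). GABARAPL1 read 72.4, 72.7 and 70.7 CPM in DMSO and 80.5, 80.5 and 82.3 with CH223191. It was at 68.3, 68.0 and 68.4 with TCDD and 71.4, 70.2 and 67.0 with kynurenine. The TCDD libraries lay below those of DMSO, and the CH223191 libraries above them. Its rise with CH223191, 0.17 ± 0.0387 on the log2 scale (edgeR adjusted p = 6.6e-04), was the smallest of the 5, and its difference with TCDD (-0.08, adjusted p = 0.23) was not called.

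The other 4 tested genes of the ATG8 family did not pass with CH223191 against DMSO. In the direct comparison GABARAP was called lower with TCDD than with CH223191, as were 18.1% of all genes. GABARAP was at 101 ± 2.54 CPM with CH223191 against 94.8 ± 3.93 in DMSO (log2 fold change 0.09, 95% interval 0.0045 to 0.18, edgeR adjusted p = 0.10), without overlap, and GABARAPL2 was at 37.1 ± 1.47 against 37.4 ± 1.99 (-0.01, 0.87). MAP1LC3A was at 2.07 ± 0.445 against 2.31 ± 0.291 CPM (-0.18, 0.46). MAP1LC3B2, a close copy of MAP1LC3B whose reads may not be fully separated from it, had 5 to 17 reads per library and was not called (-0.37, 0.51). Whether these genes differ from MAP1LC3B and GABARAPL1 in their response was not tested.

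ULK1, the kinase that starts autophagosome formation and is restrained by mTORC1, had the largest relative rise of the 10. It read 17.9, 18.3 and 18.8 CPM in DMSO and 29.4, 27.9 and 26.8 with CH223191, against 18.3, 19.2 and 15.8 with TCDD and 19.3, 18.3 and 17.1 with kynurenine. The lowest CH223191 library was above the highest of the other 9. The log2 fold change with CH223191 was 0.61 ± 0.0635 (edgeR adjusted p = 1.5e-09), or 1.53-fold. With TCDD it was -0.05 (95% interval -0.19 to 0.09) and with kynurenine -0.01 (-0.14 to 0.13), so that neither interval reached the lower end of the CH223191 interval, 0.48. The direct tests gave -0.66 for TCDD against CH223191 (adjusted p = 3.1e-10) and -0.62 for kynurenine against CH223191 (adjusted p = 1.3e-09).

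**Figure D2:**
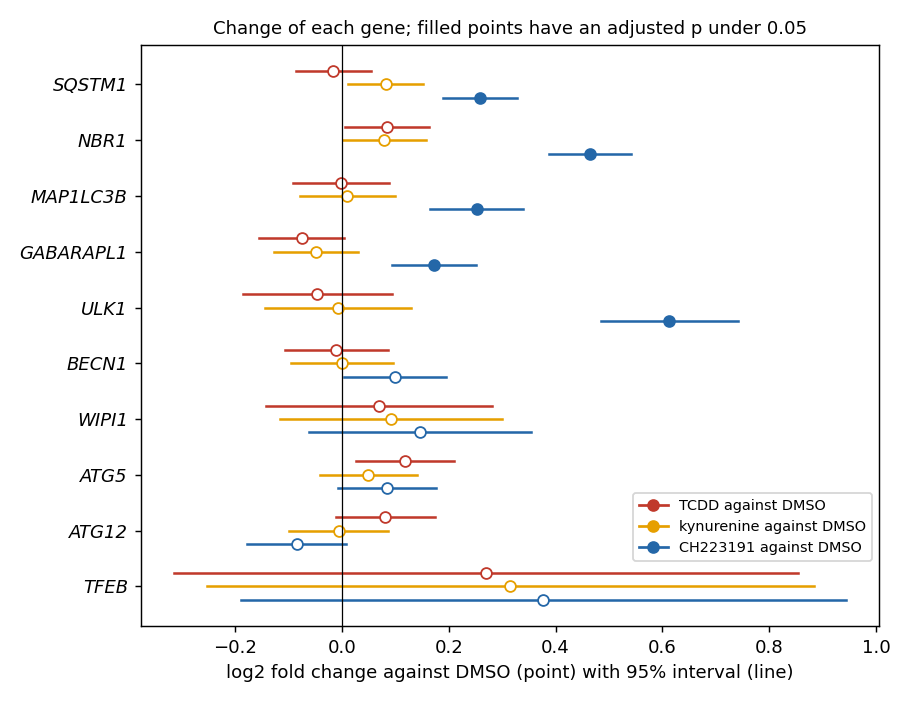
Log2 fold change against DMSO of each gene (horizontal axis) with TCDD, kynurenine and CH223191; points are estimates, lines are 95% intervals, and filled points have an edgeR adjusted p under 0.05. Filled points occur with CH223191 alone, from 0.17 for GABARAPL1 to 0.61 for ULK1, and the intervals of TFEB are the widest.

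The other 5 genes did not pass against DMSO with any of the 3 compounds by edgeR. BECN1, the scaffold of the class III lipid kinase complex, was at 46.0 ± 1.34 CPM under vehicle, 45.7 ± 1.95 under TCDD, 46.0 ± 1.93 under kynurenine and 49.3 ± 1.80 under CH223191. All 3 CH223191 libraries were above the 3 DMSO libraries, with a log2 fold change of 0.10 (95% interval 0.0045 to 0.19, edgeR adjusted p = 0.10). With libraries scaled by their totals alone BECN1 was called (0.12, edgeR adjusted p = 0.039). That setting also moved the median log2 fold change of all genes with CH223191 from 0.00097 to 0.0256.

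WIPI1 and ATG5 extend the membrane. WIPI1, which binds the lipid made by the BECN1 complex and is a known TFEB target, read 8.24, 7.85 and 6.83 CPM in DMSO and 7.38, 8.74 and 9.34 with CH223191, and the groups overlapped (log2 fold change 0.15, 95% interval -0.06 to 0.35, edgeR adjusted p = 0.29). ATG5, the conjugation partner of ATG12, was at 50.1 ± 1.74 CPM under vehicle, 54.4 ± 2.01 with TCDD, 51.8 ± 2.15 with kynurenine and 53.1 ± 0.996 with CH223191. Its TCDD libraries lay above those of DMSO, with a log2 fold change of 0.12 that did not pass (95% interval 0.03 to 0.21, edgeR adjusted p = 0.086).

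ATG12, the ubiquitin-like protein joined to ATG5, was the 1 gene of the 10 called higher with TCDD than with CH223191. It read 42.1, 44.3 and 43.8 CPM with TCDD, 42.2, 41.6 and 39.4 in DMSO, 41.2, 40.9 and 40.5 with kynurenine, and 38.1, 38.9 and 39.1 with CH223191. The CH223191 libraries were the lowest 3 of the 12 and the TCDD libraries were among the highest. The difference was 0.17 ± 0.0463 on the log2 scale (edgeR adjusted p = 0.0048; 19% of all genes were called higher in this comparison). Against DMSO neither TCDD (0.08, adjusted p = 0.27) nor CH223191 (-0.08, adjusted p = 0.16) passed.

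TFEB itself was barely expressed, with 16 to 29 reads per library. It was at 0.719 ± 0.205 CPM under vehicle, 0.866 ± 0.155 under TCDD, 0.889 ± 0.129 under kynurenine and 0.942 ± 0.203 under CH223191, and all groups overlapped. The 95% interval of its log2 fold change with CH223191 ran from -0.19 to 0.94 (edgeR adjusted p = 0.32), so a change of the size estimated for ULK1 lies within it. TFE3, a related factor with overlapping targets, was at 50.5 ± 1.13 CPM in DMSO and 54.6 ± 1.48 with CH223191 (0.11, adjusted p = 0.047), and MITF, the melanocyte factor of the same family, at 19.2 ± 2.17 and 16.2 ± 0.892 CPM (-0.24, adjusted p = 0.0093). Both calls depended on single libraries. For TFE3 the call ended without any DMSO library, kynurenine replicate 2 or CH223191 replicate 1 or 3 (highest adjusted p = 0.16), and for MITF without DMSO replicate 1 or CH223191 replicate 2 (0.14). The TFE3 call also ended with DESeq2 (adjusted p = 0.072), and in edgeR with no low-count filter (0.091) and with a replicate block (0.058).

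Over all 4 groups jointly, 6 of the 10 genes differed, where 43.6% of all genes did. They were the 5 raised by CH223191 and ATG12 (edgeR adjusted p = 0.03). The joint call of ATG12 ended without TCDD replicate 2 or 3 or CH223191 replicate 1 or 2 (highest 0.11). It also ended with DESeq2 (adjusted p = 0.059), and in edgeR with library totals alone (0.065) and with no low-count filter (0.069). The median log2 fold change of the 10 genes with CH223191 was 0.21, against 0.00097 over all tested genes. With TCDD it was 0.03 and with kynurenine 0.03.

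Levels of different genes were compared per kilobase of the canonical GENCODE 44 transcript. In DMSO, SQSTM1 stood at 82.6 ± 3.65 CPM per kb, followed by GABARAPL1 (38.2), MAP1LC3B (28.6), BECN1 (21.8), NBR1 (17.9), ATG5 (15.7), ATG12 (10.2), WIPI1 (4.003 ± 0.382), ULK1 (3.45 ± 0.0855) and TFEB (0.308). Neighbours in this order did not overlap between their 3 libraries. The order was the same with TCDD and with kynurenine. With CH223191 it changed in a pair of places, where NBR1 (24.7 ± 0.124) stood above BECN1 (23.4 ± 0.854) and ULK1 (5.27 ± 0.248) above WIPI1 (4.45 ± 0.527), again without overlap. Reads were counted per gene symbol and divided by the length of a single transcript, so close ranks of different genes may depend on that length. A lack of overlap speaks only of the spread between libraries.

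**Figure D3:**
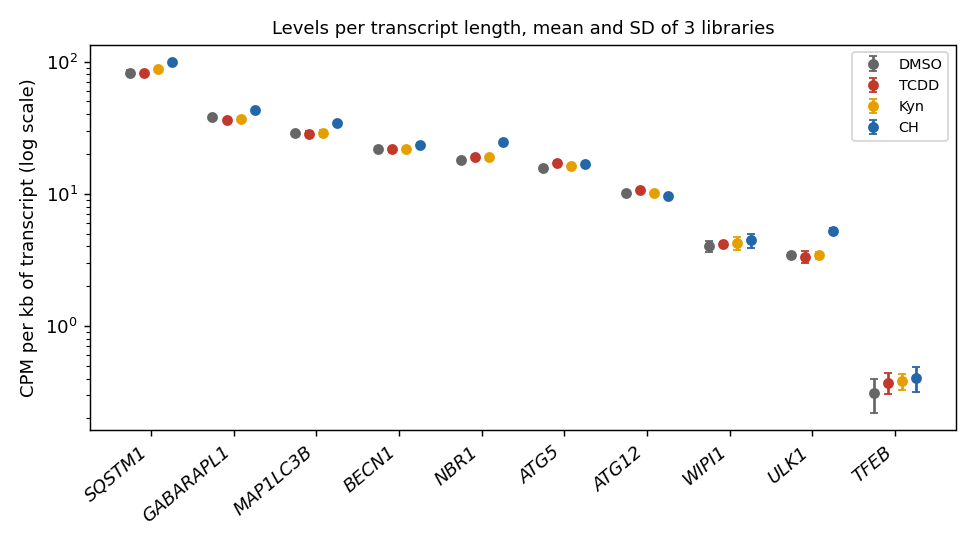
CPM per kb of transcript (vertical axis, log scale) of the 10 genes in the order of their DMSO level; points are means and bars the SD of 3 libraries in each group. SQSTM1 is at 82.6 in DMSO and TFEB at 0.308, and with CH223191 NBR1 passes BECN1 and ULK1 passes WIPI1.

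The genes most like NBR1 over the 12 libraries, among 10242 others with a mean of at least 5 CPM, were GPX8 (Pearson r = 0.988), an endoplasmic reticulum peroxidase, IFRD1 (0.984), NARS (0.982), the cytosolic asparaginyl-tRNA synthetase, XBP1 (0.980), the transcription factor of the unfolded protein response, and OARD1 (0.979). These 5 genes had log2 fold changes of 0.67, 0.69, 0.43, 0.80 and 0.52 with CH223191 in that order. All share the same 12 libraries, so this is a description. By the same measure ATP8B2, a phospholipid flippase, was most like ULK1 (r = 0.979), KLF3 most like MAP1LC3B (0.979), the non-coding LINC01152 most like GABARAPL1 (0.979) and VDR, the vitamin D receptor, most like ATG12 (0.941).

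The wider pathway was called about as often as all genes with CH223191. Of 97 tested genes in 10 hand-written autophagy and lysosome lists, leaving out the 10 above, 20 were higher and 13 lower with CH223191, a median log2 fold change of 0.0024, beside 15.9% higher and 16.9% lower among all genes. With TCDD 3 were higher and 1 lower, beside 5.91% and 5.83% of all genes. With kynurenine 0 of 97 passed by edgeR or by DESeq2, with 2 at an unadjusted p under 0.05, and edgeR called 0.294% of all genes.

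Of 16 tested receptors 6 rose with CH223191 and 0 fell, or 4 and 0 of 14 without NBR1 and SQSTM1, beside 15.9% higher and 16.9% lower among all genes. The list median was 0.03. CALCOCO2, which encodes the receptor NDP52, rose from 63.3 ± 1.67 to 104 ± 3.75 CPM (log2 fold change 0.71 ± 0.0395, edgeR adjusted p = 1.0e-16). BNIP3L, a mitophagy receptor, rose by 0.28 (adjusted p = 3.6e-06), and CCPG1, a receptor for the endoplasmic reticulum, rose both with CH223191 (0.34, adjusted p = 0.005) and with TCDD (0.34, 0.014). The TCDD call of CCPG1 ended without DMSO replicate 1 or TCDD replicate 2 or 3 (highest 0.067). WDFY3, a large scaffold for aggregate clearance, rose with TCDD (0.30, adjusted p = 3.3e-05) and was at 0.02 with CH223191 (0.73).

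Around ULK1, 3 of 5 genes of the initiation complex rose with CH223191 and 1 fell, where 15.9% and 16.9% of all genes did. Beside ULK1 these were RB1CC1, the FIP200 scaffold (0.26, edgeR adjusted p = 1.0e-05), and ATG13, the regulatory subunit (0.16, 0.0033), while ATG101, which stabilises ATG13, fell by 0.18 on the log2 scale (0.0047). ULK2, the paralog of ULK1, was not called (0.19, 0.24).

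Of the 9 genes around the BECN1 complex 1 rose and 2 fell, where 15.9% and 16.9% of all genes did. PIK3R4, its regulatory subunit, fell by 0.17 (edgeR adjusted p = 0.012; the call ended without DMSO replicate 2 or 3 or CH223191 replicate 1, highest 0.064), VMP1, a lipid scramblase, fell by 0.13 (0.0043), and ATG14 was higher by 0.18 (0.044; not called by DESeq2, 0.085, nor without DMSO replicate 1 or 3 or any CH223191 library, highest 0.13).

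Of 9 genes that bind the lipid signal or carry lipid to the growing membrane, 5 rose and 1 fell, where 15.9% and 16.9% of all genes did. ZFYVE1, a lipid-binding protein of the sites where autophagosomes form, rose by 0.42 (edgeR adjusted p = 5.0e-04) and WIPI2, a paralog of WIPI1, by 0.16 (0.0044). WDR45 was at 0.24 (0.0061), a call that ended without CH223191 replicate 3 (0.088).

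In the conjugation list, which holds ATG5 and ATG12, 1 of 11 was higher and 3 were lower, beside 15.9% and 16.9% of all genes. The LC3 proteases ATG4D (-0.30, edgeR adjusted p = 6.4e-04) and ATG4B (-0.15, 0.0097; 0.058 without DMSO replicate 3) fell. ATG16L1 (-0.14, 0.047) and ATG7 (0.17, 0.046) were called with 12 libraries but not by DESeq2 (0.075 and 0.09). Their calls ended, for ATG16L1, without DMSO replicate 1 or 2, TCDD replicate 1 or 2 or CH223191 replicate 1 or 3 (highest 0.28), and for ATG7 without any DMSO library, kynurenine replicate 3 or CH223191 replicate 2 (0.34). Of 14 fusion genes 4 rose and 1 fell, beside 15.9% and 16.9% of all genes. Among them were the autophagosomal SNARE proteins STX17, which rose by 0.21 (edgeR adjusted p = 1.6e-04), and YKT6, which fell by 0.21 on the log2 scale (2.1e-05).

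Of 29 tested lysosomal genes regulated by TFEB, 2 were higher and 4 lower with CH223191, beside 15.9% and 16.9% of all genes, and the list median was -0.02. GLA, the lysosomal alpha-galactosidase, fell by 0.23 (edgeR adjusted p = 5.0e-05) and ATP6AP1, an accessory subunit of the proton pump, fell by 0.15 (0.002). The protease gene CTSD was higher with CH223191 (0.11, 0.022) and lower with TCDD (-0.12, 0.029), with calls that ended without DMSO replicate 2 or CH223191 replicate 1 (highest 0.081) and without DMSO replicate 1 or 3 or TCDD replicate 3 (0.31). Of the 5 tested TFEB feedback genes, which act on mTORC1 at the lysosome, edgeR called 0 with CH223191 and 0 with TCDD. Among all genes it called 32.8% and 11.7%. The median log2 fold change of the 5 was -0.08 with CH223191 and -0.04 with TCDD.

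The ATF4 list moved much further. Of 17 tested genes 15 were higher and 1 lower with CH223191, beside 15.9% and 16.9% of all genes, with a median log2 fold change of 1.02. ATF4 itself rose from 275 ± 12.8 to 523 ± 10.5 CPM (0.93, edgeR adjusted p = 2.2e-21). DDIT4, an inhibitor of mTORC1, rose 5.25-fold, CHAC1, a glutathione-degrading enzyme, 3.83-fold, ASNS, asparagine synthetase, 2.66-fold and PSAT1, of serine synthesis, 2.19-fold. DDIT4 was also higher with TCDD, by 0.58 on the log2 scale (edgeR adjusted p at most 4.5e-10 with any library left out). With TCDD 3 of the 17 were higher and 3 lower, beside 5.91% and 5.83% of all genes. With kynurenine 0 passed by edgeR or DESeq2, with 2 at an unadjusted p under 0.05, and edgeR called 0.294% of all genes. Whether the ATF4 rise has a part in the rise of the 5 autophagy genes was not tested.

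**Figure D4:**
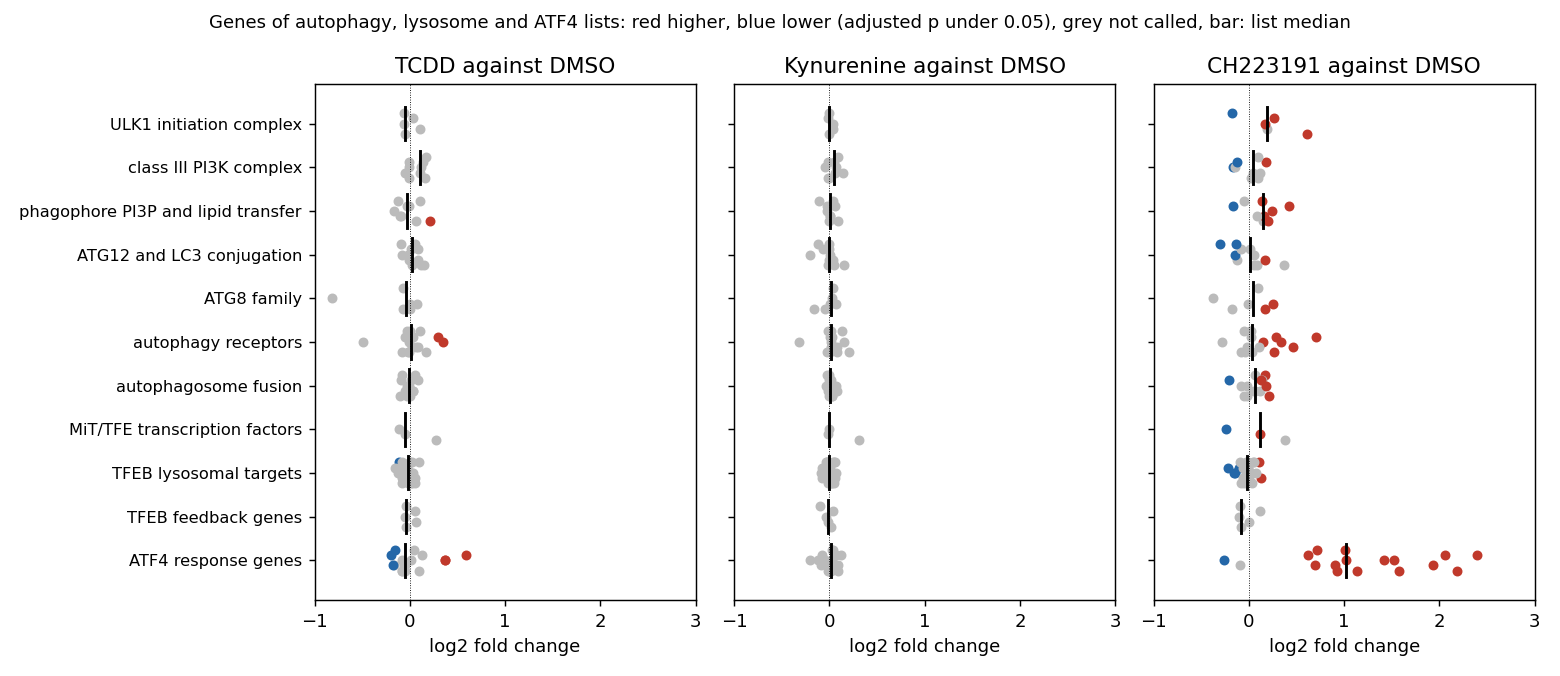
Log2 fold change against DMSO (horizontal axis) of the tested genes of 11 lists, with 1 panel for each compound; red points are higher and blue points lower at an edgeR adjusted p under 0.05, grey points were not called, and bars are list medians. With CH223191 the ATF4 list lies to the right with a median of 1.02, while the median of the TFEB lysosomal targets is -0.02.

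Sequence before each start was searched because ATF4, TFEB, NRF2 and AHR bind known short elements. In the 2000 bases before the GENCODE 44 start on hg38, on both strands, the ATF4 element TGATGNAA occurred in 2 of the 10 genes and in 25.9% of 20033 protein-coding genes. The palindromic CLEAR element, which TFEB binds, occurred in 0 of 10 (0.499% of all), the AHR element TNGCGTG in 3 of 10 (ATG5, ATG12 and NBR1; 31.4% of all), and the antioxidant element TGACNNNGC, which NRF2 binds, in 5 of 10 (SQSTM1, NBR1, WIPI1, ATG12 and TFEB; 52.2% of all). Both matches to the ATF4 element are shown 5′ to 3′ on the strand of the gene, with the element in capitals. The matches to the other elements are not printed.
GABARAPL1, chr12:10210941-10210976, plus strand, element 1503 to 1496 bases before the start: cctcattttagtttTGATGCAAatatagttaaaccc
WIPI1, chr17:68459078-68459113, minus strand, element in reverse complement 1586 to 1579 bases before the start: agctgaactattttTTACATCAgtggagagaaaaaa
GABARAPL1 rose with CH223191 and WIPI1 did not pass. A match is a run of letters and not a measured binding site, and the lack of one says only that these letters are not in this window. The start used is the outer end of the whole annotated gene, so the window may lie away from the start in use in these cells.

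On hg38 (GENCODE 44) SQSTM1 lies on chromosome 5 at 179806398 to 179838078, NBR1 on chromosome 17 at 43170481 to 43211689, MAP1LC3B on chromosome 16 at 87383953 to 87404779, GABARAPL1 on chromosome 12 at 10212458 to 10223128 and ULK1 on chromosome 12 at 131894622 to 131923150. No source used here says if reads were counted by strand, and SQSTM1 overlaps MGAT4B and MAP1LC3B overlaps FBXO31 on the opposite strand. These neighbours had log2 fold changes of -0.0081 (edgeR adjusted p = 0.89) and -0.05 (0.52) with CH223191, while NBR1, GABARAPL1 and ULK1 overlapped 0 counted genes. BECN1 overlaps PSME3, which fell with CH223191 (-0.18, adjusted p = 8.5e-05).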

How the data were processed

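The authors deposited raw read counts per gene symbol, 1 file per library. Per the submitters' processing notes, reads were trimmed with Trim Galore, aligned to hg38 with STAR 2.7.2b, sorted with SAMtools 1.9 and counted with HTSeq. The protocol text names STAR 2.5.2b, and the strand setting is not given in the sources used here.

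Groups and replicate numbers came from the titles. Counts were analysed with edgeR 4.0.16 in R 4.3.3. Genes were kept by filterByExpr (minimum count 10) and scaled by TMM, and the quasi-likelihood fit used the 4 groups of all 12 libraries, without a block. P-values were adjusted by Benjamini-Hochberg over 13619 genes, with a call at an adjusted p under 0.05. Intervals are 95%, from the same fit. The procedure was tested on simulated data. Depth was 21397703 to 28247146 reads, and HTSeq summary counters were left out.

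Replicate numbers did not pair the libraries (correlations of deviations -0.055 to 0.037 in 18 pairs with the same number). Alternatives were other scalings and filters, a replicate block, DESeq2 1.42.0, fits of 2 groups, and each library left out.

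The members and lists were chosen with earlier results of these data known. Named genes are the 10 members, up to 4 of smallest joint p per list, and the genes most like a member in log2 CPM (prior count 2), of which 1 is not reported here. ATF4, MGAT4B, FBXO31, PSME3 and the colon markers named singly were added afterwards.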

Additional observations from a re-analysis of the deposited data

How the results depend on the processing

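The 5 genes raised by CH223191 kept that call, and their lower level with either agonist than with CH223191, under each of 7 other settings and with each of the 12 libraries left out. A count of 0 of the 10 with TCDD and with kynurenine also held in each. With the replicate block the counts of the 10 called were 5 with CH223191, 0 with TCDD and 0 with kynurenine, 6 for TCDD against CH223191, 5 for kynurenine against CH223191, 0 between the agonists and 6 jointly. The block left 4, 0 and 29 of the 97 other pathway genes called with TCDD, kynurenine and CH223191, and it moved TFE3, ATG2A and ATG7 just past the threshold (adjusted p 0.058, 0.053 and 0.051).

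Between TCDD and kynurenine, DESeq2 called 1 of the 10 in place of 0, and the count was 0 to 1 with a library left out (1 without DMSO replicate 1). Of the 97 pathway genes, the filter of 5 CPM in 3 libraries gave 5 calls in place of 3, and leaving out a library gave 1 to 4. For TCDD against DMSO that range was 2 to 6 around 4, and it was 2 when DMSO replicate 1 or 3, or replicate 2 or 3 of TCDD, was left out.

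A change of sign occurred only in genes that were not called. Away from left-out libraries these were MAP1LC3B with TCDD (0.0034 by library totals and 0.0025 with the 5 CPM filter), BECN1 with kynurenine (-0.0012 by library totals) and NBR1 between the agonists (-0.0016 with no filter). With a library left out, values with TCDD against DMSO ranged from -0.048 to 0.015 for SQSTM1, -0.035 to 0.029 for MAP1LC3B, -0.0056 to 0.13 for WIPI1, -0.10 to 0.030 for ULK1 and -0.042 to 0.022 for BECN1. With kynurenine they ranged from -0.020 to 0.048 for MAP1LC3B, -0.0030 to 0.16 for WIPI1, -0.050 to 0.038 for ULK1, -0.035 to 0.014 for ATG12 and -0.033 to 0.023 for BECN1. Between the agonists the ranges were -0.053 to 0.019 for MAP1LC3B, -0.089 to 0.072 for WIPI1, -0.099 to 0.036 for ULK1, -0.043 to 0.024 for BECN1, -0.028 to 0.026 for NBR1 and -0.16 to 0.085 for TFEB. Against CH223191 they were -0.15 to 0.013 for WIPI1 with kynurenine, and for TFEB -0.24 to 0.052 with kynurenine and -0.28 to 0.022 with TCDD. BECN1 became called against CH223191 in 3 of 7 other settings with TCDD and in 1 with kynurenine. With a library left out it stayed uncalled in 9 of 12 fits with TCDD and in 11 of 12 with kynurenine. The cause was not tested. With 16 to 29 reads per library, depth limits what can be said of TFEB.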
